A study of Mus musculus with 43 samples.

Results

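The serine and selenocysteine tRNA fragments were the features of the 3 deposited tables whose names began with tRNA-Ser or tRNA-SeC and ended in fiveprime, threeprime or other. In full they are named tRNA-Ser-AGA, tRNA-Ser-CGA, tRNA-Ser-GCT, tRNA-Ser-TGA, tRNA-Ser-GGA and tRNA-SeC-TCA, shortened here to Ser-AGA and so on, and to SeC. They were 45 of the 5364 features that the tables held in all, and came from 15 isodecoders, each with its 3 fragment types. Of these, 42 belonged to the anticodons AGA, CGA, GCT and TGA of serine and TCA of selenocysteine (SeC), and 3 to Ser-GGA-1. The tissue table listed all 45 among 4890 features. The fluid table listed 42 of 3178, without Ser-AGA-3, and the sperm table listed 45 of 4323.

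Small RNAs were sequenced from wild type (WT) FVB mice and from FVB mice with a CRISPR-Cas9 germline deletion of the Rnase9-12 locus (KO), all aged 8 to 12 weeks. Epididymis tissue was profiled by ARM-seq in caput, corpus and cauda, the segments that sperm pass in this order, with 3 libraries per genotype and segment except for 2 of KO corpus. Epididymal fluid of the same segments was profiled by OTTR-seq with 3 libraries per group, and cauda sperm by OTTR-seq with 4 WT and 4 KO libraries. The fluid had been cleared of sperm, cell debris and extracellular vesicles by centrifugation. RNA of several mice was pooled for each fluid or sperm library, and all RNA was treated with polynucleotide kinase to remove 3′ phosphates. The deletion was present in every cell of the KO animals, and no feature in the tables was named for the deleted genes, so the genotype labels were not checked by their RNA. Library totals were 30142156 to 249732714 counts in tissue, 1948718 to 12320922 in fluid and 1134840 to 62128314 in sperm. One label of segment on WT caput tissue replicate 3 and on the caput fluid libraries read cauda, and the titles were followed.

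Serine tRNAs typically carry a long variable arm, and are charged by seryl-tRNA synthetase. The same enzyme charges the selenocysteine tRNA with serine, which is then converted to selenocysteine and inserted at UGA codons of selenoproteins, among them the glutathione peroxidase Gpx4 of sperm. tRNA fragments (tRFs) arise by cleavage of mature tRNAs, and those with the 5′ or the 3′ end of the tRNA are found in epididymal fluid and in sperm. A read that reached neither end was classified by the authors as other, and a read that spanned both ends as full-length.

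RefSeq lists 22 serine tRNA genes in the mouse genome, of which 7 are AGA, 8 GCT, 3 CGA, 3 TGA and 1 GGA. A cluster on chromosome 13, between 21492845 and 23521951 of GRCm38, holds 12 of them. None of the 22 genes overlaps a protein-coding gene. The GGA gene is 73 bases long and the others are 82, so the annotated GGA gene is shorter than a serine tRNA with the usual long variable arm. A GCT gene is printed here because the fragment with the largest share of serine and SeC counts was a Ser-GCT fragment in each of the 3 tables, although RefSeq numbers do not give the isodecoder numbers of the tables. The sequence is the RefSeq gene n-TSgct5 at chr13:22050686-22050767 of GRCm38 on the minus strand, 5′ to 3′, with the anticodon at positions 34 to 36, counted from the 5′ end, in capitals.
n-TSgct5: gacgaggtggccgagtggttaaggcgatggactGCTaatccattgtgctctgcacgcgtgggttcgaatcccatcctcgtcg

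By the methods of the study, the best alignments of a read were all kept, with some exceptions, and tRNA counts were limited to reads specific for an amino acid and anticodon. In the deposited tables several isodecoders held the same or nearly the same counts, some of them with different anticodons. In fluid, the 3′ fragments of Ser-AGA-1 and Ser-TGA-2 held 250127 and 251825 counts, and differed by 0.674% when summed over the 18 libraries. The 5′ fragments of Ser-GCT-1, Ser-GCT-2 and Ser-GCT-4 held the same 11151 counts in fluid. Fragments within 1% of another fragment of the same type were 9 among 45 in tissue. They were 10 among 42 in fluid and 13 among 45 in sperm. Such fragments cannot be taken as independent measurements, and sums over isodecoders may count a read more than once.

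The fragment type differed between tissue and the other sample types. In fluid, 3′ fragments made up 90.6 to 97.7% of serine tRNA fragment counts over the 18 libraries, with a median of 95.2%. The median in sperm was 94.1%, with a range of 64.8 to 95.2% over 8 libraries. In tissue it was 41.4%, with a range of 24.99 to 53.6% over 17 libraries, and fragments from the middle of the tRNA (other) made up 41.9 to 69.2%. Tissue and fluid libraries did not overlap in either share. These shares sum all isodecoders, some of which may hold the same reads. With only the most counted isodecoder of each anticodon and type, tissue 3′ fragments took 29.5 to 64.8% and other fragments 30.5 to 61.8%. The tissue medians of 3′ and other were then 50.6 and 41.1%, against 41.4 and 50.1% over all isodecoders. Which type was larger in tissue thus depended on the counting. Since tissue libraries were made by ARM-seq and the others by OTTR-seq, the sample type and the library method cannot be told apart.

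Fragments of the selenocysteine tRNA were distributed over the types otherwise than those of serine tRNAs. In fluid, 5′ fragments took 40.1 to 78.3% of SeC fragment counts, against 1.81 to 8.85% of serine fragment counts in the same libraries. In sperm, SeC 5′ fragments took 36.5 to 62.4% and SeC other fragments 30.3 to 53.6%, while SeC 3′ fragments took 5.51 to 13.2%. In tissue the SeC 5′ share was 8.77 to 24.6%. For comparison, 3′ fragments of all other tRNAs took 33.2 to 61.4% of their fragment counts in fluid, so the serine 3′ share lay above, and the SeC 3′ share of 18.6 to 53.2% overlapped, that of the other tRNAs. Their 5′ fragments took 36.6 to 64.0% in fluid. The SeC 5′ share overlapped this range and the serine 5′ share lay below it.

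**Figure D1:**
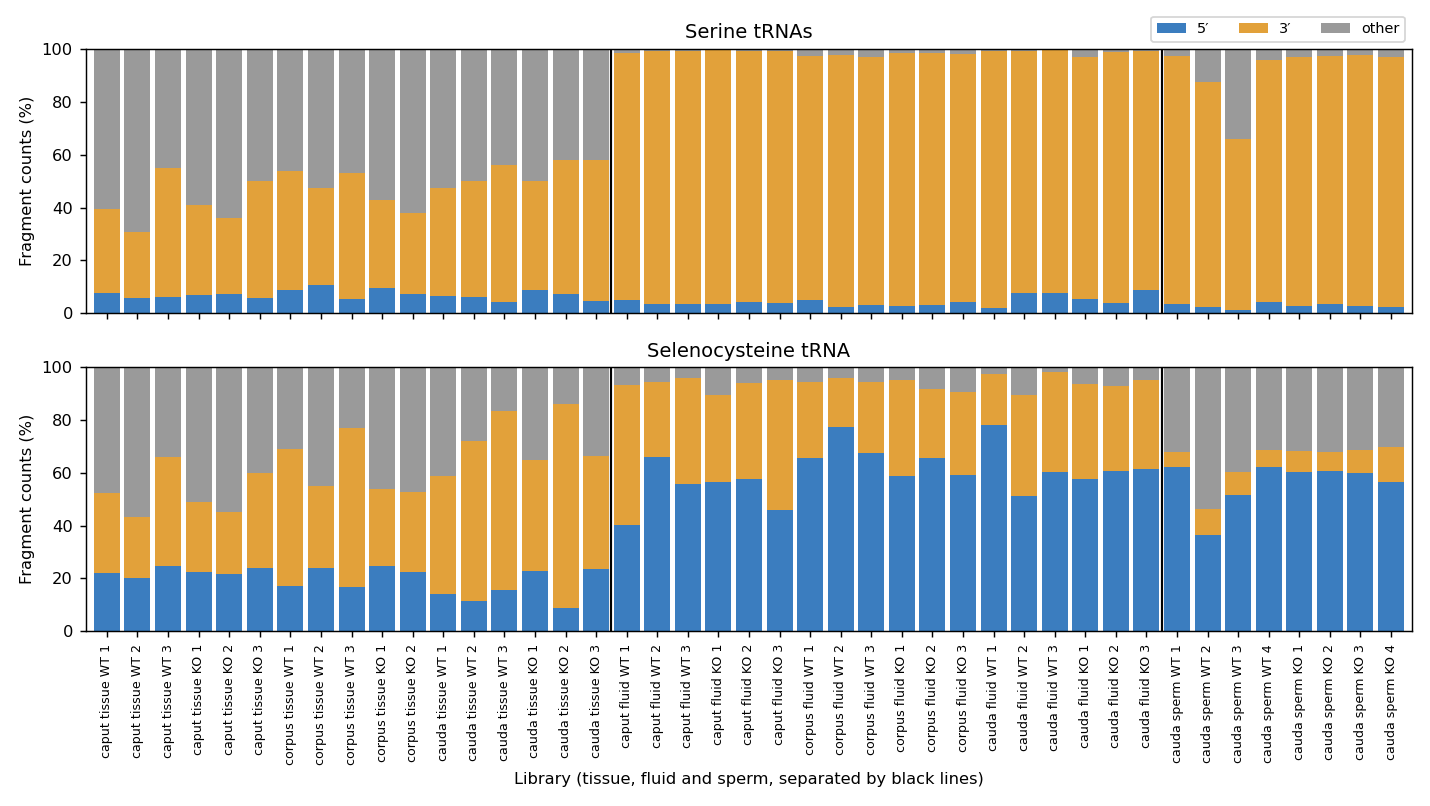
Share of 5′, 3′ and other fragments (percent of fragment counts, y axis) in each of the 43 libraries (x axis, tissue then fluid then sperm) for serine tRNAs (top) and the selenocysteine tRNA (bottom). Serine fragments were mostly 3′ in fluid and sperm, while 5′ fragments took 40.1 to 78.3% of SeC counts in fluid. For all other tRNAs (not shown) the 5′ share in fluid was 36.6 to 64.0%.

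Ser-GCT fragments had the largest shares of the counts. In fluid, the 3′ fragment of Ser-GCT-3 took 15.8 to 44.3% of all serine and SeC counts of a library and 29.4% over all libraries. In sperm the 3′ fragments of Ser-GCT-3, Ser-GCT-2 and Ser-GCT-4 took 14.7, 14.2 and 14.0%. Their totals were 53773, 52084 and 51138 counts, so they may hold the same reads. In tissue the first of all was the other fragment of Ser-GCT-4, with 10.9%. That of Ser-GCT-1 followed with 10.6%, and they may share reads too. Together the serine and SeC fragments made up 4.20 to 7.35% of tRF counts in tissue, 1.02 to 2.96% in fluid and 3.32 to 6.62% in sperm.

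The WT segments were compared to ask how the fragments varied along the epididymis, and the clearest differences were in SeC fragments of the fluid. Levels are given as CPM, the counts scaled to a common library total after normalization by the trimmed mean of M-values (TMM). The SeC 5′ fragment stood at 946, 2096 and 1798 CPM in the 3 WT caput fluid libraries, at 517, 1060 and 538 CPM in corpus and at 203, 289 and 437 CPM in cauda. All caput libraries were above all cauda libraries, and the lowest caput library was below the highest corpus library. The SeC 3′ fragment stood at 1253, 907 and 1301 CPM in caput, 225, 254 and 212 CPM in corpus and 50.1, 218 and 274 CPM in cauda. Caput libraries lay above all others, while corpus and cauda overlapped. SeC other fragments had group means in the same order, with 152 ± 23 CPM (SD, n = 3) in caput, 48.0 ± 6.3 CPM in corpus and 26.3 ± 29 CPM in cauda.

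From caput to cauda fluid, all 3 SeC fragments fell by the quasi-likelihood test of edgeR, adjusted over all features by the Benjamini-Hochberg method. The 5′ fragment was 5.21-fold lower (log2 fold change -2.38 ± 0.41 SE, adjusted p = 0.000468), the 3′ fragment 6.39-fold lower (log2 fold change -2.68 ± 0.50, adjusted p = 0.000787) and the other fragment 5.78-fold lower (log2 fold change -2.53 ± 0.57, adjusted p = 0.00316). Of the 40 serine and SeC fragments tested, 5 fell and 2 rose, against 15.4% and 9.69% of all 2023 features tested. DESeq2 called 3 lower and 4 higher. The 3 SeC fragments were called by both tools and held in each leave-out of 1 library, while the falls of Ser-GCT-3 3′ and Ser-CGA-2 other were no calls by DESeq2. All features had a median log2 fold change of -0.17, and the tested serine fragments one of 0.40.

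From caput to corpus fluid, 4 of 40 fragments fell and 0 rose by edgeR, against 9.54% and 8.21% of all features. By unadjusted p under 0.05, 5 were lower and 1 higher, against 18.3% and 13% of all features. DESeq2 called 4 lower and 0 higher. The fragments that fell by edgeR were the 3 SeC fragments and the 3′ fragment of Ser-GCT-3. The SeC 3′ fragment had a log2 fold change of -2.32 ± 0.49 SE (edgeR adjusted p = 0.00388). The SeC other and 5′ fragments had log2 fold changes of -1.67 ± 0.55 and -1.19 ± 0.40, with edgeR adjusted p of 0.0402 and 0.0409. The call of the other fragment was lost when any 1 of the 6 libraries was left out (adjusted p 0.108 to 0.161), and that of the 5′ fragment without caput replicate 2 or 3 or corpus replicate 1 or 3 (adjusted p 0.130 to 0.179). Scaling on features other than tRNA and rRNA gave both no call, with log2 fold changes of -1.27 and -0.79.

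KO fluid had group means of SeC fragments in the same order. The SeC 5′ fragment stood at 1323 ± 167, 621 ± 210.2 and 422 ± 83.3 CPM in KO caput, corpus and cauda, and the SeC 3′ fragment at 1042 ± 512, 322 ± 146 and 237 ± 39.3 CPM. The segments were not tested in KO.

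**Figure D2:**
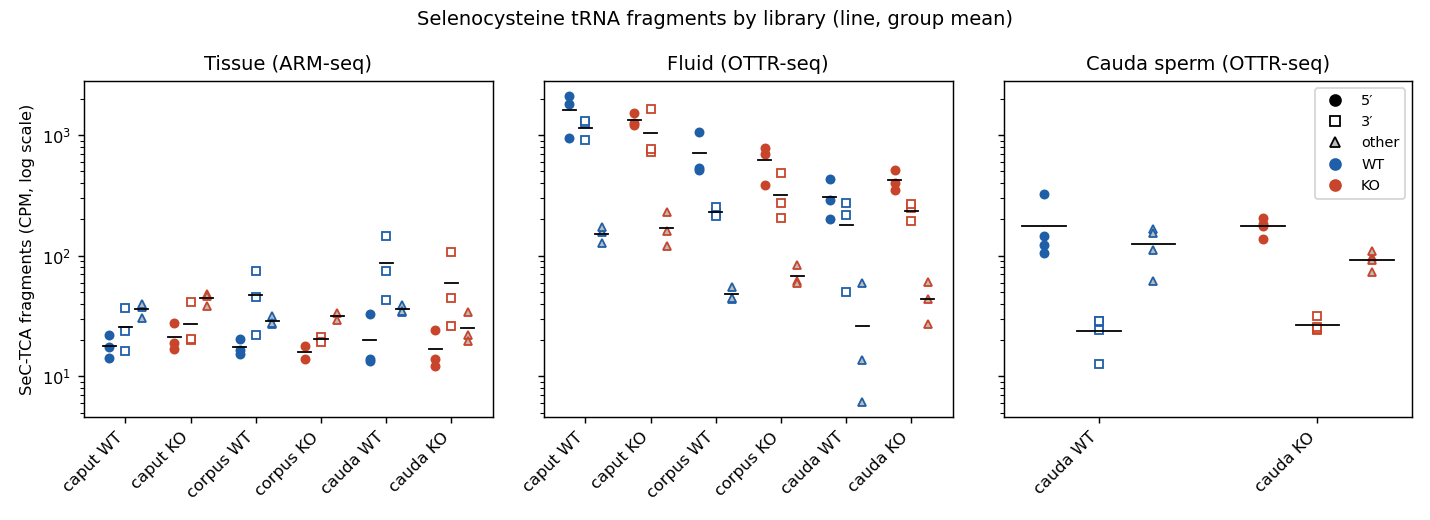
CPM (log scale) of the 5′ (filled circles), 3′ (open squares) and other (triangles) SeC fragments in each library (WT blue, KO red), with group means as lines, for tissue, fluid and sperm, which were scaled separately. In fluid, the WT caput 5′ values of 946 to 2096 CPM lie above the WT cauda values of 203 to 437 CPM.

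Of the serine fragments, Ser-GCT-3 3′ was called in both segment comparisons in fluid. The 3′ fragment of Ser-GCT-3 stood at 5800, 9250 and 9824 CPM in WT caput, 2259, 2435 and 2041 CPM in corpus and 2720, 2498 and 5865 CPM in cauda. All corpus libraries were below all caput libraries, and 1 cauda library was within the caput range. It fell from caput to corpus (log2 fold change -1.88 ± 0.39 SE, edgeR adjusted p = 0.00378) and from caput to cauda (log2 fold change -1.17 ± 0.39, edgeR adjusted p = 0.0304). The second call was lost without caput replicate 2 or 3 or cauda replicate 1 or 2 (adjusted p 0.0921 to 0.120).

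The other changes from caput to cauda fluid were in Ser-CGA. The 5′ fragment of Ser-CGA-1 stood at 6.92, 8.57 and 8.98 CPM in caput and at 6.62, 37.9 and 50.2 CPM in cauda, so that 1 cauda library lay below all of caput. It rose with a log2 fold change of 1.95 ± 0.64 SE (edgeR adjusted p = 0.0305), and Ser-CGA-3, whose 5′ counts were within 1% of it, gave the same value. The call was lost in 5 of 6 leave-outs and held without cauda replicate 1, the low library (log2 fold change 2.44, adjusted p = 0.00816). The Ser-CGA-2 other fragment, named after its values were seen, fell from 5.59 ± 2.0 to 1.97 ± 1.2 CPM (edgeR adjusted p = 0.0407). By sums over isodecoders, the 3′ fragments of Ser-AGA stood at 2997 ± 967, 2969 ± 474 and 4960 ± 1779 CPM in WT caput, corpus and cauda fluid, and those of Ser-TGA at 2105 ± 653, 1853 ± 313 and 3013 ± 942 CPM. No isodecoder of either passed the test. The 2 sums are not independent, since Ser-TGA-2 3′ (251825 counts, against 32856 of Ser-TGA-1 3′) was within 1% of Ser-AGA-1 3′.

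Summed levels of marker microRNA precursors differed between WT caput and cauda fluid for several cell types, but not for epithelium. The 6 of 7 smooth muscle precursors in the table were all above 0, with sums of 79.3 to 146 CPM in WT caput fluid and 152 to 339 CPM in cauda, and the 6 epithelial ones summed to 111 to 194 and 88.1 to 146 CPM. The 3 of 5 listed germ cell precursors summed to 1.996 to 3.50 CPM in WT caput and 15.1 to 31.6 CPM in cauda fluid, and the 4 of 5 listed leukocyte precursors to 8.38 to 11.6 and 22.3 to 43.3 CPM, all above 0 and with no overlap between the segments. Their part in the differences between segments was not tested. The fluid sums are of RNA left after the removal of sperm, cell debris and vesicles, and are not levels of cells. In whole tissue, fewer cells of a type and less RNA per cell cannot be told apart.

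In tissue, the SeC 3′ fragment went the other way. It stood at 24.003, 16.1 and 37.1 CPM in WT caput, 45.9, 21.9 and 74.1 CPM in corpus and 42.9, 74.6 and 145 CPM in cauda. All cauda libraries were above all caput libraries. It rose from caput to cauda (log2 fold change 1.76 ± 0.57 SE, edgeR adjusted p = 0.0326), a change of 3.40-fold. The call was lost without caput replicate 1 (log2 fold change 1.79, adjusted p = 0.073), caput replicate 2 (1.52, adjusted p = 0.120) or cauda replicate 3 (1.32, adjusted p = 0.115), while a fit of these 2 groups alone, blocked on replicate number, gave 1.79. The SeC 5′ fragment stood at 17.9 ± 3.9, 17.4 ± 2.7 and 20.1 ± 11 CPM in the 3 WT segments, and the SeC other fragment at 36.2 ± 5.0, 29.0 ± 2.3 and 36.1 ± 2.7 CPM. The 6 listed smooth muscle precursors were all above 0 and summed to 21.3 to 42.2 CPM in WT caput and 112 to 222 CPM in cauda tissue, and their part was not tested.

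From caput to cauda tissue, 3 of 45 fragments fell and 1 rose, against 7.28% and 15.7% of all 3488 features tested. By unadjusted p under 0.05, 6 were lower and 1 higher, against 14.8% and 19.1%. The Ser-GCT-3 other fragment fell from 57.9, 56.3 and 27.9 CPM in caput to 18.4, 23.5 and 25.5 CPM in cauda (log2 fold change -1.08 ± 0.33 SE, edgeR adjusted p = 0.0257). The Ser-CGA-2 other fragment had a log2 fold change of -1.06 ± 0.37 (edgeR adjusted p = 0.0451). The 5′ fragment of Ser-AGA-3 had one of -1.29 ± 0.37 (edgeR adjusted p = 0.0171) at levels of 0.950 ± 0.34 and 0.367 ± 0.16 CPM. In the fit of the 2 groups alone blocked on replicate number, which paired these libraries, the GCT-3 and CGA-2 fragments missed the fold threshold with -0.91 and -0.89. Each of these 2 calls was also lost in 5 of 6 leave-outs, and that of Ser-AGA-3 without caput replicate 1 or cauda replicate 2 (adjusted p 0.112 and 0.133).

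From caput to corpus tissue, 0 of 45 fragments were called by edgeR, against 2.81% of all features falling and 9% rising. An unadjusted p under 0.05 was reached by 11 lower fragments (6.88% of all features) and no higher one, and DESeq2 called 7 lower. All 15 other fragments had a log2 fold change below 0, with a median of -0.73, and in 9 of them every corpus library was below every caput library, against 9.12% of all features. The lowest p was that of Ser-CGA-2 other, at 14.2, 12.4 and 6.73 CPM in caput and 5.73, 5.80 and 3.44 CPM in corpus (log2 fold change -1.16 ± 0.37, edgeR adjusted p = 0.051). In the fit of these 2 groups alone, 0 were called, and with the replicate number, which paired these libraries too, as a block it and Ser-CGA-3 other passed. By sums, Ser-GCT other fragments stood at 644 ± 77.3, 404 ± 55.4 and 453 ± 135 CPM in WT caput, corpus and cauda tissue.

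KO and WT libraries were compared within each sample type to ask whether loss of the Rnase9-12 locus altered the fragments. The fragments called were those of Ser-GGA-1 in corpus fluid. The Ser-GGA-1 other fragment stood at 243, 231 and 220 CPM in the 3 WT corpus fluid libraries and at 97.1, 64.0 and 85.8 CPM in KO. All KO libraries were below all WT libraries. It fell 2.81-fold (log2 fold change -1.49 ± 0.44 SE, edgeR adjusted p = 0.0213).

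The Ser-GGA-1 3′ fragment had 39 counts in the 3 WT corpus fluid libraries together, or 1.75 CPM, and 0 counts in each KO library. Against a floor of 3 counts over the KO group, it was at least 5.02-fold lower (edgeR adjusted p = 0.0116). Without WT replicate 1, which had most of these counts, the adjusted p was 0.0549 for the 3′ fragment and 0.0572 for the other fragment, so neither was called. The other fragment was also not called without KO replicate 2 (adjusted p = 0.0727) or KO replicate 3 (adjusted p = 0.0605). The fragments called, 2 lower and 0 higher of 40 tested, compare with 6.23% lower and 13.5% higher among all 2023 features.

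**Figure D3:**
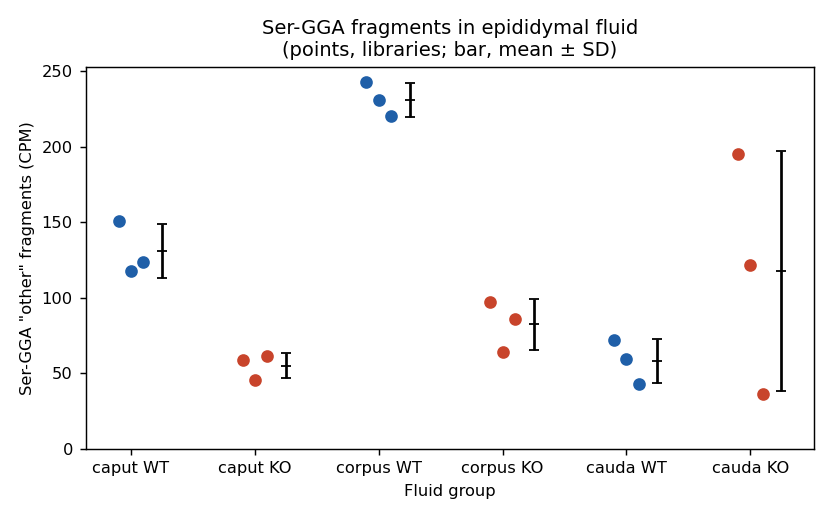
CPM of the Ser-GGA other fragment (y axis, from 0) in each fluid library (points, WT blue and KO red) with the group mean and SD (bars), by segment and genotype. KO libraries lie below WT libraries in caput and corpus, while in cauda KO spans 36.4 to 195 CPM and WT 42.8 to 72.0 CPM.

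In caput fluid, the Ser-GGA-1 other fragment stood at 151, 118 and 124 CPM in WT and at 58.5, 45.5 and 61.3 CPM in KO. The groups did not overlap, with a log2 fold change of -1.25 ± 0.44 SE, but it did not pass the test (edgeR adjusted p = 0.278). In cauda fluid it stood at 72.0, 59.2 and 42.8 CPM in WT and at 195, 122 and 36.4 CPM in KO, and the groups overlapped. The difference between the KO effects in cauda and in caput fluid, 2.27 on the log2 scale, did not pass (edgeR adjusted p = 0.145). In tissue the Ser-GGA other fragment was at 0.255 to 0.595 CPM and in sperm at 0.317 to 1.07 CPM by group mean.

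The other serine fragments of corpus fluid were mostly lower in KO without passing the test. The median log2 fold change over the 40 fragments was -0.54, against 0.10 over all features and -0.62 over the fragments of tRNAs other than serine, SeC and leucine, of which 96 of 471 were called lower. Leucine tRNAs, the other nuclear tRNAs with a long variable arm, had a median of -0.34, and 8 of 50 of their fragments were called lower. In 12 of the 40, every KO library was below every WT library, against 15.7% of all features. The summed Ser-AGA 3′ fragments stood at 3042, 3402 and 2464 CPM in WT and 2139, 1407 and 1626 CPM in KO. SeC fragments were at 705 ± 307 and 621 ± 210.2 CPM (5′), 231 ± 21.6 and 322 ± 146 CPM (3′) and 48.0 ± 6.3 and 68.3 ± 14 CPM (other) in WT and KO. With scaling on features other than tRNA and rRNA, which moved the median of all features to -0.71, 16 of the 40 were called lower and 0 higher, with a median of -1.38.

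Marker precursors also differed between the corpus fluid groups. The 6 epithelial precursors were all above 0, with sums of 31.9 to 73.5 CPM in WT and 97.8 to 154 CPM in KO. The 3 of 5 listed germ cell precursors summed to 3.58 to 9.06 and 12.8 to 15.4 CPM. The 4 of 5 listed leukocyte precursors summed to 14.2 to 19.8 and 20.5 to 80.8 CPM. Sums of smooth muscle and red blood cell precursors overlapped between the genotypes. In caput fluid the epithelial sums were 111 to 194 CPM in WT and 257 to 322 CPM in KO. Their part in the Ser-GGA difference was not tested.

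In the other tissue and fluid comparisons no serine or SeC fragment was called by edgeR. In caput tissue it was 0 of 45 (0% of all features lower and 0% higher), with 0 by DESeq2. There 0 fragments had an unadjusted p under 0.05, against 0.659% of all features lower and 0.315% higher. In corpus tissue it was 0 of 45 (0% and 0%), with 0 by DESeq2 and 0 by unadjusted p (7.22% and 0.774% of all features). There the lowest p was that of the SeC 3′ fragment, with a log2 fold change of -1.22 (edgeR adjusted p = 0.644) and both KO libraries below all 3 WT libraries. In caput fluid it was 0 of 40 (0% and 0%), with 0 by DESeq2 and 1 lower by unadjusted p (5.14% and 5.44%). In cauda fluid it was 0 of 40 (0% and 0%), with 0 by DESeq2, and 3 lower and 1 higher by unadjusted p (2.82% and 6.48%). The lowest p in cauda fluid was that of the Ser-AGA-1 3′ fragment, at 3449, 1692 and 2970 CPM in WT and 1027, 1235 and 1875 CPM in KO (log2 fold change -0.97 ± 0.37 SE, edgeR adjusted p = 0.382), where the highest KO library was above the lowest WT library.

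Most fragments of cauda tissue had lower CPM in KO without a call. As a share of all tRNA fragment counts, the serine and SeC fragments went the other way, with 4.29, 5.24 and 5.50% in WT and 5.34, 5.66 and 7.35% in KO. Of the 45 fragments, 0 were called by edgeR (0.831% of all features lower and 0.0287% higher), 7 were lower by unadjusted p (7.37% of all features lower and 7.74% higher), and DESeq2 called 1, Ser-CGA-2 other. All 15 other fragments had a log2 fold change below 0, with a median of -0.52, and in 5 of them every KO library was below every WT library, against 10.1% of all features. Ser-CGA-1 other stood at 11.5, 10.8 and 15.008 CPM in WT and 8.11, 6.24 and 7.36 CPM in KO (log2 fold change -0.79 ± 0.28 SE, edgeR adjusted p = 0.183). Ser-CGA-2 other stood at 5.31, 4.31 and 6.37 CPM in WT and 3.82, 1.94 and 2.23 CPM in KO (log2 fold change -1.02 ± 0.37, edgeR adjusted p = 0.190). In a fit of the 2 groups alone, 0 fragments were called, and with the replicate number, which paired these libraries, as a block added to it 3 were called lower, namely Ser-CGA-2 other, Ser-CGA-3 other and Ser-GGA-1 3′. Over the fragments of tRNAs other than serine, SeC and leucine, the median was -0.60. The difference of the KO effects between cauda and caput tissue gave 0 calls of 45 by edgeR, with 5 at an unadjusted p under 0.05, and DESeq2 was not fitted to it. The difference between corpus and caput fluid gave 0 of 40, with 1 at an unadjusted p under 0.05. The difference between cauda and caput fluid also gave 0 of 40, with 1 at an unadjusted p under 0.05, Ser-GGA-1 other.

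**Figure D4:**
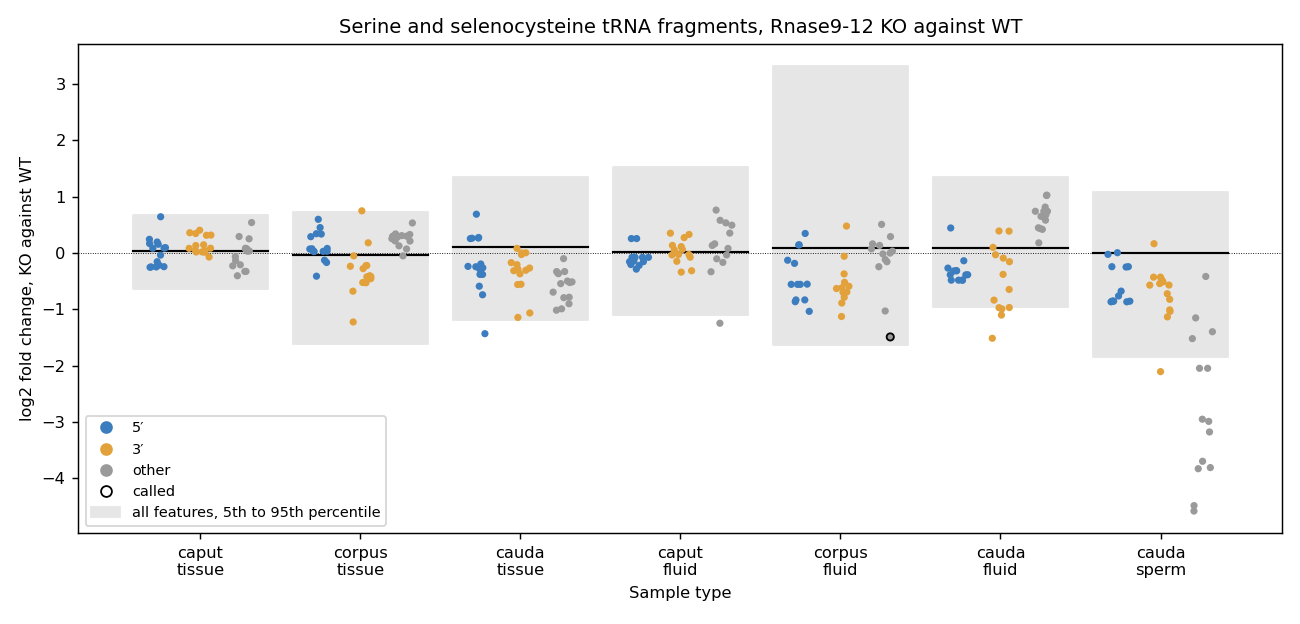
Log2 fold change of KO against WT (y axis) of each serine and SeC fragment tested (points, coloured by type, black edge where called), by sample type (x axis), over the 5th to 95th percentile (grey) and median (black line) of all features. The Ser-GGA-1 3′ fragment in corpus fluid, with 0 counts in KO, is left out, and the points farthest below the grey band are other fragments in sperm.

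Cauda sperm had no call either, and WT libraries differed from each other in the other fragments. Of 41 fragments tested, 0 were called by edgeR (0% of all 2480 features lower and 0% higher), 12 were lower by unadjusted p (9.48% lower and 8.02% higher), and DESeq2 called 6 lower (4.44% of all features lower and 0.165% higher by DESeq2). The 14 other fragments tested had a median log2 fold change of -2.97, against -0.76 for the 13 5′ and -0.57 for the 14 3′ fragments. In 3 of 41, every KO library was below every WT library, against 1.25% of all features. Of 50 leucine tRNA fragments, 29 were lower and 0 higher by unadjusted p, with a median log2 fold change of -1.18. Of 442 fragments of tRNAs other than serine, SeC and leucine, 113 were lower and 5 higher, with a median of -0.61. Ser-GCT-1 other stood at 3.97, 49.5, 44.9 and 3.98 CPM in WT and 1.91, 1.85, 1.97 and 2.06 CPM in KO (log2 fold change -3.70 ± 0.82 SE, edgeR adjusted p = 0.116). WT replicates 2 and 3 were far above WT replicates 1 and 4, which were in turn above all of KO. Ser-GCT-4 other stood at 3.96, 26.9, 36.5 and 3.61 CPM in WT and 1.91, 1.85, 1.88 and 2.06 CPM in KO (log2 fold change -3.18 ± 0.73, edgeR adjusted p = 0.116).

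Reads antisense to serine tRNAs were also highest in these 2 WT libraries. Summed over serine tRNAs, other fragments stood at 48.4, 252, 975 and 29.6 CPM in WT sperm replicates 1 to 4 and at 27.7, 28.8, 24.4 and 27.5 CPM in KO. The antisense reads stood at 1.89, 42.1, 715 and 10.5 CPM in WT and at 1.74, 2.36, 2.08 and 6.86 CPM in KO. Both sums may count a read more than once. In WT replicate 3, other fragments of Ser-AGA-1, Ser-AGA-2, Ser-CGA-1 and Ser-TGA-2 held 384, 369, 334 and 385 counts. Antisense reads of the same isodecoders had highest counts of 312, 312, 313 and 312 in a library. WT replicate 3 was the shallowest library, with 1134840 counts. WT replicates 2 and 4 and KO replicate 4 held 2899859, 3025269 and 3618739 counts, and the remaining libraries 42764979 to 62128314. Without WT replicate 4, 12 fragments were called lower, among them 10 other fragments, those of Ser-AGA-1, Ser-AGA-2, Ser-CGA-1, Ser-CGA-2, all 5 Ser-GCT isodecoders and Ser-TGA-2. These calls are not independent, since Ser-GCT-2 and Ser-GCT-5 other held the same counts and others may share reads. Without both WT replicates 2 and 3, an alternative chosen after seeing the data, 0 were called and the median log2 fold change over the fragments was -0.58, against -0.86 with them. Thinning all sperm libraries to the shallowest, given below, left most serine fragments not measurable. The part of the antisense reads and of depth in the difference was otherwise not tested.

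**Figure D5:**
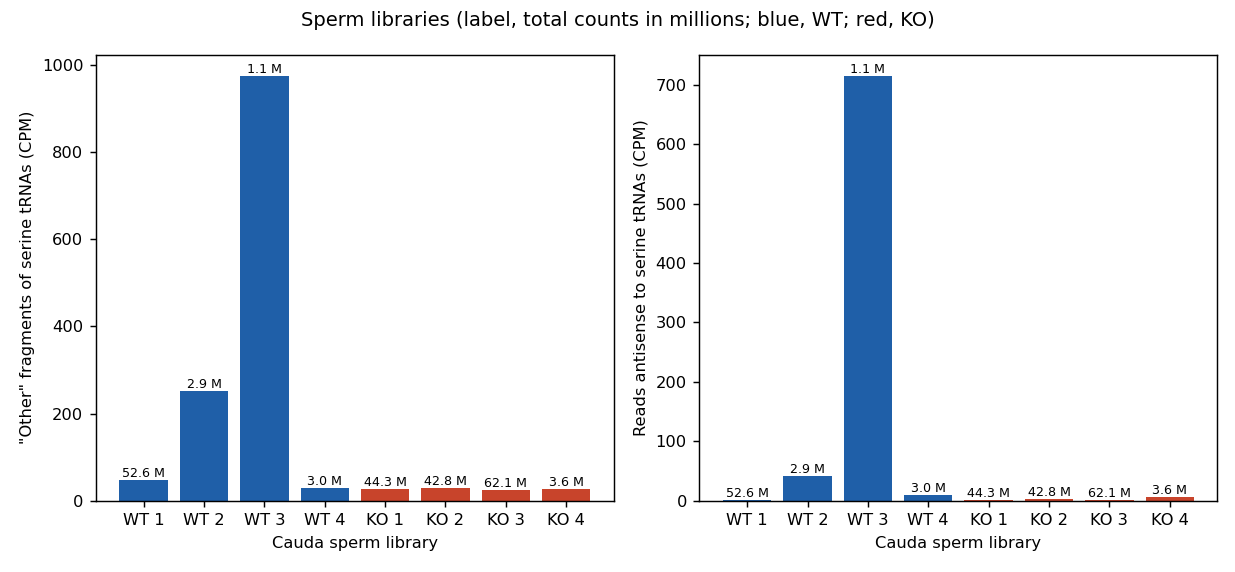
CPM of other fragments of serine tRNAs (left) and of reads antisense to serine tRNAs (right) in each of the 8 cauda sperm libraries (bars from 0, WT blue and KO red, total counts above). WT replicate 3 stands at 975 CPM for other fragments and 715 CPM for antisense reads, above all other libraries in both. Bars are sums over isodecoders and may count a read more than once.

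SeC fragments in sperm did not separate the genotypes. The 5′ fragment stood at 325, 106, 146 and 123 CPM in WT and 176 ± 29 CPM (SD, n = 4) in KO, so the KO libraries lay within the WT range. The 3′ fragment stood at 23.6 and 26.6 CPM and the other fragment at 124 and 93.1 CPM by group mean in WT and KO, and WT and KO libraries overlapped in both. By sums, Ser-GCT 3′ fragments stood at 860 ± 406 CPM in WT and 589 ± 77.7 CPM in KO, and Ser-AGA 3′ fragments at 342 ± 234 and 232 ± 5.3 CPM. KO libraries spread less than WT libraries in both. More of the WT libraries were shallow, and the part of depth in the spread was not tested.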

How the data were processed

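Small RNAs of 43 libraries (17 from tissue, 18 from fluid, 8 from sperm) were analysed from 3 deposited tables. The authors trimmed reads with cutadapt, mapped them to mm10 with a modified tRAX pipeline and classified reads on mature tRNAs by their ends, and the deposited values are raw read counts per feature. UMI-tools is also named in the submitters' processing notes, and tool versions were not given in the sources used here. Groups were taken from the sample titles, and 0 columns of values were left unmapped. The members and lists were chosen with earlier results of these data known.

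From the counts, features were kept by filterByExpr (minimum count 10, minimum total 15), scaled by TMM and tested per table, with all groups of a table in 1 fit, by edgeR's quasi-likelihood test (edgeR 4.0.16, R 4.3.3). A call needed a Benjamini-Hochberg adjusted p under 0.05 over all features tested and an absolute log2 fold change above 1. Tables were scaled separately, so levels were compared within a table only. Members named in a comparison were those called (the 6 of lowest p where more were called), or the 2 of lowest p where fewer than 2 were called, beside sums by anticodon and fragment type and the most counted isodecoders. Other members shown were chosen after their values were seen. Alternatives were DESeq2 1.42.0, other scalings, no filter, the 2 groups alone, sums, the most counted isodecoder, a replicate block and leave-outs. The fit was tested on simulated data.

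Replicate numbers paired the libraries, by every correlation of deviations being over 0.1, for KO against WT in cauda tissue (0.272 to 0.596) and for WT corpus and cauda tissue against caput (0.312 to 0.555 and 0.306 to 0.633), but not elsewhere. None of 46 replicate pairs agreed within sampling noise (lowest chi-square per degree of freedom 26.5). Fluid and sperm libraries were pools of several mice. The labels do not say that tissue libraries came from separate animals, so p-values measure the spread between these libraries. Total counts per library limit precision, and floors cover counting error only. The gene sequence was taken from RefSeq with GRCm38, and sequences of other serine tRNA genes are not reported here.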

Additional observations from a re-analysis of the deposited data

Results flagged for a closer look

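The summed Ser-CGA 3′ fragments in WT sperm replicate 4 stood at 18.4 CPM, apart from and below the other 3 WT sperm libraries by Dixon's criterion. The Ser-GGA 5′ fragment in KO sperm replicate 3 stood at 0.0753 CPM, from 5 counts in the deepest library, with 0 counts in the other 3 KO sperm libraries. This fragment was below the filter on low counts, and with the other values tied at 0 the criterion is met by any count, so nothing is read from it. Of 36 groups tested, 2 met it, and chance gives about 1 in 20.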

How the results depend on the processing

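No called result reversed. The caput to cauda fall of the 3 SeC fragments in fluid and the caput to corpus fall of SeC 3′ and Ser-GCT-3 3′ fragments passed under every alternative run for them. Other counts of calls depended on the setting, and the cause was not tested. With DESeq2, counts were 1 in KO cauda tissue, 6 in KO sperm and 7 in corpus against caput tissue, and cauda against caput fluid had 3 lower and 4 higher. Scaling by library size alone gave 1 call in KO corpus fluid and 1 in corpus against caput tissue, with medians of -0.18 (0.07 by TMM), -0.83, -0.67 and -0.67 in KO corpus tissue, KO cauda tissue and WT corpus and cauda against caput tissue. DESeq2 size factors gave 1 in corpus against caput tissue. Scaling on features other than tRNA and rRNA gave 16 calls and a median of -1.38 in KO corpus fluid, 7 and -0.69 in corpus against caput tissue, 10 and -0.80 in cauda against caput tissue, and 2 in corpus against caput fluid. Without a filter, cauda against caput tissue and corpus against caput fluid each had 2. The 2 groups alone gave 1 in KO corpus fluid and 1 in cauda against caput tissue. Sums gave 1 in cauda against caput tissue and 1 in corpus against caput fluid. The most counted isodecoders gave 1, 2 and 4 in cauda against caput tissue, corpus against caput fluid and cauda against caput fluid, and a median of -0.78 in KO cauda tissue. In cauda tissue the log2 ratio of KO to WT of the fragments' summed share, which has no test, was -0.81 as a share of all counts and 0.29 as a share of tRNA fragment counts, a change of sign.

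Leaving out 1 library gave 0 to 2 calls in KO corpus fluid (0 without WT replicate 1), 0 to 1 in KO cauda fluid (1 without WT replicate 2), 0 to 12 in KO sperm (12 without WT replicate 4), 0 to 5 in corpus against caput tissue (5 without caput replicate 3), 0 to 5 in cauda against caput tissue (0 without caput replicate 1), 2 to 3 in corpus against caput fluid and 3 to 5 in cauda against caput fluid. Medians ran from -0.17 to 0.20 in KO corpus tissue, -0.69 to -0.20 in KO cauda tissue and -0.52 to -0.24 in corpus against caput tissue.

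With the replicate number as a block, always in fits of the 2 groups alone, the paired comparisons gave 3 calls in KO cauda tissue, 2 in corpus against caput tissue and 2 in cauda against caput tissue. The 2 groups alone without it gave 0, 0 and 1. Where the libraries share only a number, this fit gave 1 in KO corpus fluid, 7 in corpus against caput fluid and 4 in cauda against caput fluid (1, 4 and 6 without the block), and a median of -0.13 in KO corpus tissue. It changed no other count of calls. Thinning all sperm libraries to the shallowest, chosen after seeing the data, left 13 fragments tested and 0 called, with a median of -0.81, so most serine fragments were not measurable at that depth.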

Other observations

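Full-length serine and SeC tRNA reads came to 0.154% of the counts of their fragments in tissue, 0.0174% in fluid and 0.00382% in sperm. Reads antisense to these tRNAs came to 0.00170% in tissue, 0.0365% in fluid and 0.529% in sperm, with 0.0852 to 22.7% over single sperm libraries.

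Across libraries, the summed SeC fragments were most like those of Asp-GTC in tissue (Pearson's r of log2(CPM + 0.5) 0.850, n = 17), Ala-AGC in fluid (0.925, n = 18) and Gly-GCC in sperm (0.919, n = 8), among 45 anticodons whose medians were 0.0160, 0.175 and 0.715. Summed serine fragments were most like those of Asn-GTT in tissue (0.925), Thr-AGT in fluid (0.867) and Tyr-GTA in sperm (0.980). Their medians over the 45 anticodons were 0.736, 0.598 and 0.817, so r was high for many tRNAs. Serine and SeC fragments had r of 0.167, 0.349 and 0.461 with each other. The libraries compared share segments, genotypes, depth and reads counted in several tRNAs, so these values are descriptions.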
